A study of Mus musculus with 2 samples.

Results

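The transcripts described here encode 10 enzymes of antioxidant defence: the superoxide dismutases Sod1 and Sod2, the glutathione peroxidases Gpx1, Gpx3 and Gpx4, the peroxiredoxins Prdx1, Prdx2 and Prdx4, the redox protein Txn1 (thioredoxin 1) and its reductase Txnrd1. They were taken by symbol, all 10 were found among the 28692 genes of the count matrices, and all 10 passed the filter on low levels in every comparison of cell classes. The series concerns BAF60C, a chromatin-remodelling subunit encoded by Smarcd3, in type 2 diabetes. The control genotype was flox/flox, and the islets set against it carried the label BcBKO, a deletion attributed to beta cells and made with Pdx1-cre; this Cre is driven by the promoter of a pancreatic transcription factor that is also active before birth and outside beta cells. Each genotype was 1 droplet library, with islets of at least 3 mice pooled before capture, so the 2 libraries give no spread between mice; age, sex and diet are not given in the sources used here, and whether the flox/flox mice carry Cre is not given either.

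Superoxide dismutases turn superoxide into hydrogen peroxide. Glutathione peroxidases and peroxiredoxins then reduce the peroxide, the former with glutathione and the latter mostly with thioredoxin, which thioredoxin reductase recharges with electrons from NADPH. Pancreatic beta cells are known for low levels of several of these enzymes, catalase and glutathione peroxidase above all, when compared with liver and other tissues. The question asked of these data was whether the transcripts were low in beta cells in comparison with the other cells of the same islets.

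Several of the genes are classical targets of NRF2, a transcription factor that binds the antioxidant response element, and the core letters of that element stood close to a RefSeq start of 3 of the 10 genes. The core TGACNNNGC was searched on both strands in windows from 250 bases before to 50 bases after each RefSeq transcription start (GRCm38.p6), and no other motif was searched. It was present in 3 of 15 windows of the 10 genes (20%) and in 12.4% of all 32851 windows. The share of all genes with such a window was not computed, so the 3 of 10 genes have no background to be read against. The stretches that hold it follow, 5′ to 3′ on the plus strand, which is also the strand of these genes; the capitals mark the core, which lies on the minus strand in each.
Prdx1, chr4:116685450-116685490: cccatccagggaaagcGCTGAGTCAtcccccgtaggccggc
Txnrd1, chr10:82859098-82859138: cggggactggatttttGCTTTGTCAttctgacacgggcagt
Sod1, chr16:90220690-90220730: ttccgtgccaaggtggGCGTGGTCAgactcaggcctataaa
The core began 133 bases before the RefSeq start used for Prdx1 (position 116685599), 92 before that used for Txnrd1 (82859206) and 56 before that used for Sod1 (90220762). These starts lie 55, 25255 and 8 bases after the gene starts of the GENCODE annotation given below, so the Txnrd1 stretch lies at an internal start within the annotated gene. A match of letters is a description and shows no binding.

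The flox/flox library held 9438 barcodes and 167670996 UMIs (unique molecular identifiers, each 1 counted RNA molecule), and the library labelled BcBKO held 10775 barcodes and 178647270 UMIs. Of the 7568 and 8504 barcodes kept, 76.9% and 71.6% fell into 6 classes set by hormone and marker genes: 2750 and 3058 beta cells, 415 and 714 alpha cells, 281 and 371 delta cells, 1763 and 1516 endothelial cells, 794 and 665 mural cells, and 463 and 367 macrophages, in the order flox/flox and then labelled BcBKO. The classes mostly bore out their markers, with the following reservations. Of the 7 alpha markers 5 and 6 were highest in alpha cells; of the 5 delta markers 4 were highest in delta cells, since Hadh was highest in beta cells; and of the 9 beta markers 8 were highest in beta cells, since Slc30a8 was at 400.0 and 346 CPM (counts per 1e6 UMIs) there and at 408 and 447 in alpha cells. Of the mural barcodes 71.9% and 75.5% also met the rule of another class, mostly endothelial, and the 6 endothelial markers summed to 10789 and 11284 CPM in them against 13922 and 14042 in endothelial cells. Macrophages carried 18514 and 30060 CPM of Gcg, the alpha cell hormone. The PP cell hormones Ppy and Pyy were high in alpha and delta cells, with sums of 70652 to 96702 CPM. Mafa, which marks mature beta cells, was nearly undetected in beta cells, at 0.782 and 1.25 CPM. The libraries shared 23 barcodes. Smarcd3 had 45 UMIs (0.374 CPM) in beta cells of the flox/flox library, against 71 (0.610 CPM) in the one labelled BcBKO. It was therefore not lower where it should have been deleted; 3′ tags may lie outside the deleted part and then check nothing, and the second library is called by its label throughout.

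Beta cells had the lowest CPM of all 6 classes for 10 of the 10 enzymes in both libraries, but the same was true of most genes. Among 7992 genes compared in this way, 62.9% were lowest in beta cells in both libraries, and 1.35% were highest there. CPM divides by all UMIs of a class, and the 8 islet hormone transcripts, insulin among them, made up 69.95% and 68.2% of the UMIs of beta cells, against 40.6% and 37.8% in alpha, 33.4% and 34.0% in delta, 3.95% and 5.37% in endothelial, 2.79% and 3.94% in mural cells and 8.05% and 12.1% in macrophages. When CPM was computed over all genes other than these 8 hormone genes and the mitochondrially encoded genes, called hormone-free CPM below, beta cells were lowest for 1 of the 10, Prdx4, with 8.76% of all genes as the background, and highest for 1 of the 10, Sod2, with 23.5% as the background. Counted as UMIs per cell, beta cells were lowest for 0 of the 10 (2.03% of all genes) and highest for 4, namely Sod2, Gpx4, Prdx2 and Txnrd1 (51.4% of all genes). The count per cell depends on the rule for beta cells, which requires at least 10000 UMIs. Without the barcodes that met several class rules, 8 of the 10 were lowest in beta cells in CPM and 0 in hormone-free CPM. The share of all genes was not computed without those barcodes, so these counts have no background to be read against. Without those barcodes macrophages were below beta cells in at least 1 library for Prdx2 and Txnrd1 in CPM and for Prdx4 in hormone-free CPM.

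Summed over the 10 enzymes, the level in beta cells was 651 CPM in the flox/flox library, against 722 CPM in the one labelled BcBKO. The sums were 2146 and 2277 in alpha cells, 2174 and 2157 in delta cells, 2718 and 2830 in endothelial cells, 2658 and 2820 in mural cells and 2422 and 2141 in macrophages. The beta cell sum was below that of every other class in both libraries, in CPM and also in hormone-free CPM, where macrophages came nearest. In hormone-free CPM the sums were 2345 and 2477 in beta cells, 3795 and 3856 in alpha cells, 3411 and 3424 in delta cells, 2922 and 3101 in endothelial cells, 2834 and 3050 in mural cells and 2714 and 2518 in macrophages. Of these hormone-free sums, Gpx3 alone made up 1901 and 1896 in alpha cells and 991 and 1027 in delta cells. In beta cells Gpx3 made up 34.6 and 69.3. Per cell, beta cells held 28.4 and 27.5 UMIs of the 10 enzymes, alpha cells 32.9 and 29.7, and macrophages 16.01 and 13.5. Gpx3 made up 16.5 and 14.6 of the UMIs per cell in alpha cells and 0.420 and 0.768 in beta cells.

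**Figure D1:**
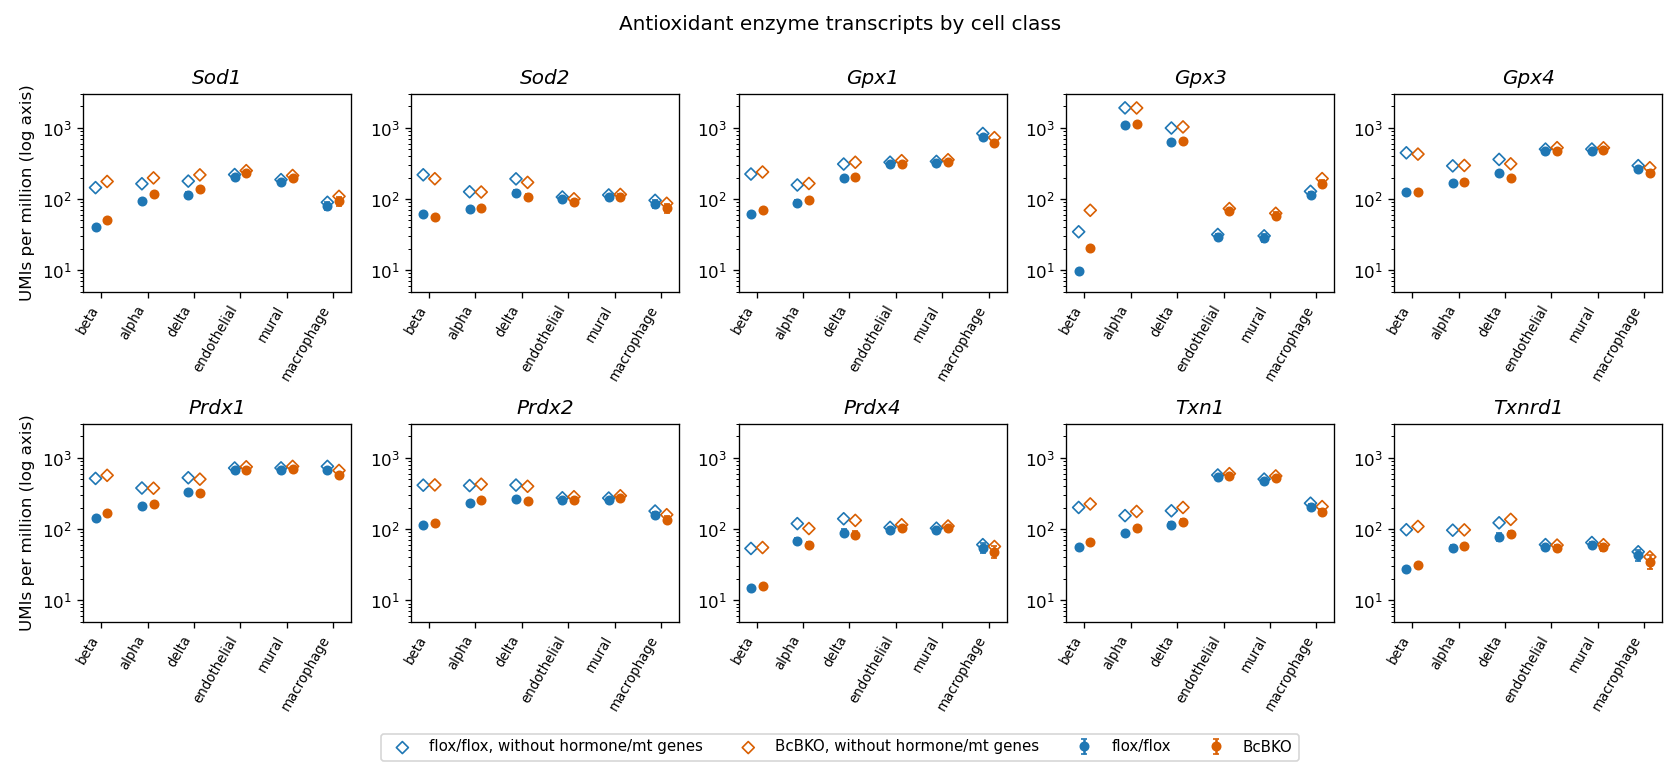
Levels of the 10 transcripts in each cell class, in CPM on a log axis. Filled circles are CPM over all UMIs with exact Poisson 95% intervals, open diamonds are hormone-free CPM, and the 2 colours are the 2 libraries. The filled circles of beta cells lie lowest in every panel, whereas the diamonds of beta cells are lowest only for Prdx4 and highest only for Sod2.

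To compare beta cells with each other class against the bulk of the transcriptome, UMIs were summed per class and library and tested with edgeR's quasi-likelihood test, with the library as a block and TMM scaling, which centres the differences of most genes near 0. Against alpha cells 3 of the 10 were lower in beta cells and 5 higher at an adjusted p under 0.05, where 32.1% of all genes tested were lower and 32.6% higher. Against delta cells 5 were lower and 3 higher, with 28.3% and 29.8% of all genes. Against endothelial cells 6 were lower and 3 higher, with 40.8% and 41.6% of all genes. Against mural cells 6 were lower and 3 higher, with 40.0% and 40.6% of all genes. Against macrophages 5 were lower and 3 higher, with 34.4% and 35.1% of all genes. Against alpha cells the 3 of 10 called lower lay near the background, as did the 3 called higher against delta cells and macrophages. The 3 called higher against endothelial and mural cells lay below it. The remaining counts lay above it, which was not tested. None of the 5 comparisons had all 10 enzymes on one side.

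These calls depend on the scaling. With library totals in place of TMM, the median of all genes shifted to −0.87 (log2) against alpha, −1.19 against delta, −1.48 against endothelial, −1.54 against mural cells and −0.88 against macrophages, and 10, 10, 10, 10 and 8 of the 10 enzymes were called lower in beta cells, 0 higher. Of all genes tested 86.0%, 92.3%, 82.8%, 84.0% and 64.0% were lower in the same order and 6.13%, 3.27%, 11.96%, 10.8% and 12.96% higher, so these counts lay near the background. Relative to that shift, 5, 5, 7, 7 and 7 of the 10 lay below the median of all genes. With only 2 libraries and 1 residual degree of freedom, the spread of a gene is mostly borrowed from other genes. With the library as a block, that spread is how far the class difference varies between the 2 libraries, which also differ in genotype.

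**Figure D2:**
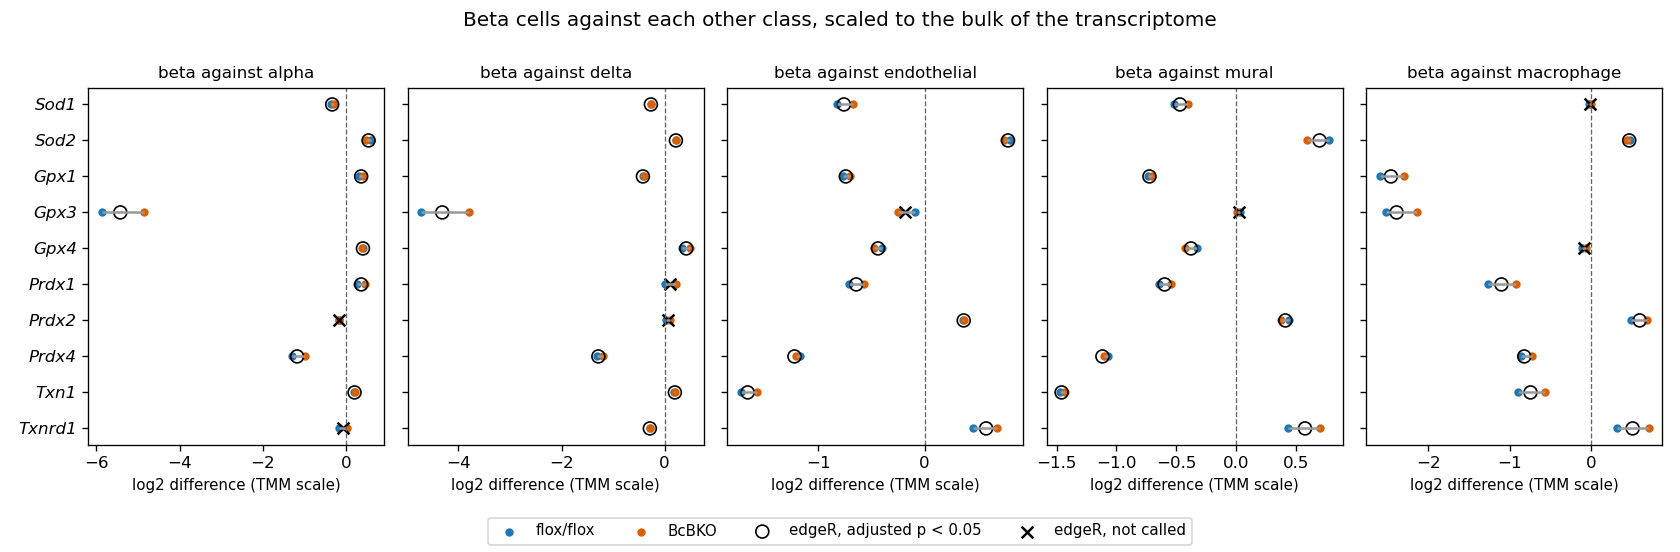
log2 difference of beta cells against each other class for the 10 transcripts on the TMM scale, with horizontal ranges that differ between panels. Small points are the 2 libraries, open circles are edgeR estimates called at an adjusted p under 0.05, and crosses are estimates not called; Sod2 lies right of 0 in every panel and Prdx4 left of 0 in every panel.

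On the TMM scale the superoxide dismutases went opposite ways in beta cells, Sod2 higher than in all 5 other classes and Sod1 lower than in 4 of them, whereas with library totals both were lower. Sod1 (chr16:90220754-90226329, plus strand, GRCm38) encodes the copper-zinc enzyme of the cytosol. In beta cells it was at 40.0 CPM in the flox/flox library, against 51.3 CPM in the one labelled BcBKO. In the same order it was at 92.4 and 117 in alpha cells, 113 and 137 in delta cells, 205 and 228 in endothelial cells, 175 and 197 in mural cells, and 80.0 and 92.5 in macrophages. The order from beta cells up to endothelial cells was the same in both libraries, and macrophages and alpha cells overlapped. With TMM scaling Sod1 was lower in beta cells by edgeR against alpha (log2 difference −0.33, adjusted p = 0.000458), delta (−0.27, 0.00108), endothelial (−0.76, 7.28e-05) and mural cells (−0.47, 0.000749), and it did not pass against macrophages (−0.02, 0.892). Over hormone-free totals the difference from macrophages was 0.69 (adjusted p = 0.000232). The mural value rests on the barcodes shared with endothelial cells: without them Sod1 was at 68.3 and 89.7 CPM in the 223 and 163 mural cells left, and the difference turned to 0.75 (adjusted p = 9.43e-05). The call against delta cells ended with DESeq2 (−0.28, adjusted p = 0.0850), without the replicate block (−0.27, 0.104) and without the filter on low levels (−0.18, 0.0647). The annotated gene overlaps Scaf4 on the other strand.

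Sod2 (chr17:13006846-13040063, plus strand) encodes the manganese enzyme of the mitochondrial matrix. Beta cells had 60.6 and 56.0 CPM, alpha cells 71.3 and 73.9, delta cells 122 and 108, endothelial cells 99.0 and 91.7, mural cells 107 and 107, and macrophages 85.2 and 73.9. In hormone-free CPM the order turned round, and beta cells were highest in both libraries with 218 and 192, followed by delta cells with 191 and 171, and macrophages were lowest with 95.6 and 86.9. Scaled by TMM, Sod2 was higher in beta cells against all 5 classes by edgeR, by 0.54 against alpha (adjusted p = 7.56e-06), 0.22 against delta (0.00814), 0.79 against endothelial (3.19e-05), 0.70 against mural cells (0.000159) and 0.46 against macrophages (0.00512). With library totals it was lower in beta cells against each of them, by −0.32, −0.98, −0.71, −0.87 and −0.45 in the same order. Without the barcodes of several classes the differences from delta (0.14, adjusted p = 0.134) and mural cells (0.25, 0.120) no longer passed. The call against delta cells also ended with DESeq2 (0.21, adjusted p = 0.204) and without the replicate block (0.22, 0.0837), and that against macrophages with DESeq2 (0.43, 0.0569). Beta cells also held the most Sod2 UMIs per cell, 2.65 and 2.13 against at most 1.51 and 1.25 in delta cells. On that scale 51.4% of all genes were highest in beta cells, whose rule requires at least 10000 UMIs.

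The glutathione peroxidases followed 3 different orders of the classes. Gpx1 (chr9:108338903-108340343, plus strand), the main cytosolic and mitochondrial glutathione peroxidase, was at 62.1 and 69.6 CPM in beta cells, 88.8 and 97.4 in alpha cells, 197 and 206 in delta cells, 305 and 315 in endothelial cells, 316 and 328 in mural cells, and 741 and 617 in macrophages. Macrophages stood apart from all others, and endothelial and mural cells, which share barcodes, lay next to each other. On the TMM scale Gpx1 was higher in beta than in alpha cells (0.37, edgeR adjusted p = 0.000322) and lower than in delta (−0.42, 1.57e-07), endothelial (−0.74, 7.00e-05) and mural cells (−0.72, 5.29e-05) and in macrophages (−2.46, 7.12e-07). With library totals the difference from alpha cells was −0.50. In hormone-free CPM alpha cells were the lowest class, with 157 and 165 against 224 and 239 in beta cells.

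Gpx4 (chr10:80047166-80056439, plus strand) reduces lipid peroxides within membranes. It was at 123 and 124 CPM in beta cells, 165 and 174 in alpha cells, 229 and 196 in delta cells, 466 and 479 in endothelial cells, 470 and 483 in mural cells, and 262 and 233 in macrophages. In hormone-free CPM the beta cells had 444 and 426, above alpha (292 and 295) and delta cells (359 and 311) and below endothelial cells (501 and 525). The test on the TMM scale gave the same sides: 0.41 against alpha (edgeR adjusted p = 0.000280), 0.42 against delta (3.62e-07), −0.44 against endothelial (0.00136) and −0.38 against mural cells (0.00139), with −0.09 against macrophages not passing (0.430); over hormone-free totals that last difference was 0.62 (adjusted p = 0.000264). Against alpha and delta cells the sign turned with library totals (−0.46 and −0.77).

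Gpx3 (chr11:54902453-54910377, plus strand) encodes a glutathione peroxidase that is secreted and is best known from plasma, and it was a transcript of the other islet endocrine cells. Alpha cells had 1075 and 1120 CPM and delta cells 632 and 647, whereas beta cells had 9.60 and 20.2, endothelial cells 29.5 and 66.8, mural cells 28.4 and 58.1, and macrophages 114 and 164. The ranges of alpha and delta cells overlapped with no other class. Alpha cells exceeded beta cells 112-fold and 55.5-fold in CPM and 55.0-fold and 27.4-fold in hormone-free CPM, so the hormone content changes the size but not the direction. With TMM scaling the differences of beta cells were −5.42 against alpha (edgeR adjusted p = 1.71e-11), −4.31 against delta (1.41e-66) and −2.39 against macrophages (2.43e-06), and Gpx3 passed neither against endothelial (−0.18, 0.08004) nor against mural cells (0.02, 0.815).

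RNA of alpha cells was measurable in the other classes through Gcg. If all Gcg outside alpha cells came with Gpx3 at the ratio found in alpha cells, this would carry 59.9% and 77.7% of the Gpx3 level in macrophages, 35.7% and 51.8% in endothelial cells, 12.7% and 38.4% in mural cells and 12.1% and 12.6% in beta cells. Sst, the delta cell hormone, at the ratio of delta cells would carry 37.2% and 40.2% in macrophages, 9.95% and 9.93% in endothelial cells, 11.8% and 5.61% in mural cells and 4.73% and 5.99% in beta cells; as alpha and delta cells carry each other's hormone, these shares are not independent of those from Gcg. Without barcodes of several classes Gpx3 was at 18.6 and 29.7 CPM in macrophages, and the difference from beta cells there was 0.05 (edgeR adjusted p = 0.813). The call against macrophages therefore ends without those barcodes, and against endothelial (0.50, 0.00163) and mural cells (−0.65, 0.00204) calls appear on opposite sides. Without called doublets Gpx3 passed above both, at 0.46 against endothelial (0.00874) and 0.38 against mural cells (0.0406), and with beta cells from 20000 UMIs it passed below endothelial cells (−0.26, 0.0231). In delta cells, with 40548 and 49191 CPM of Gcg, the same ratio would carry 23.7% and 32.3% of Gpx3. Without barcodes of several classes, delta cells had 3604 and 4734 CPM of Gcg and still 579 and 547 CPM of Gpx3.

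Among the beta cells themselves Gpx3 was uneven. The 5% of beta cells with the most Gpx3 UMIs held 62.1% of them in the flox/flox library, against 54.0% in the one labelled BcBKO, whereas for the other 9 enzymes this share ran from 12.8% to 32.5%. The variance of Gpx3 UMIs over cells was 11.7 and 9.13 times the mean, against 3.40 at most for the others. A single beta cell reached 92 Gpx3 UMIs in the first library and 77 in the second. Beta cells with an insulin share of 25% to 50% of UMIs (88 and 184 cells) had 109 and 107 CPM, and those with 60% to 70% (2046 and 1943 cells) had 6.38 and 12.3. The difference between these bins remained in hormone-free CPM, where the levels were 232 and 241 in the first of these bins and 23.7 and 45.2 in the second. Median depth differed too, with 25118 and 23869 UMIs per cell in the first bin and 39490 and 35532 in the second. Beta cells with at least 0.1% of UMIs from Gcg, Sst, Ppy and Pyy (199 and 1138 cells) had 34.6 and 31.8 CPM, and those below (2551 and 1920 cells) had 8.05 and 14.98.

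**Figure D3:**
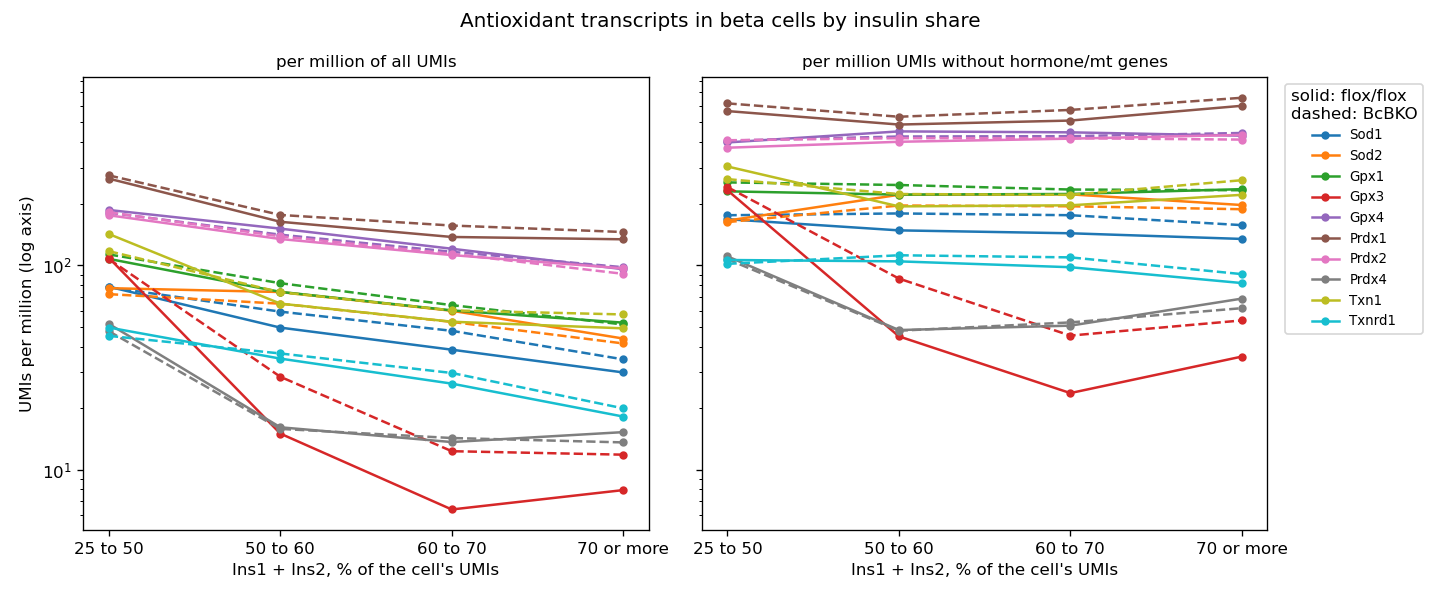
Levels of the 10 transcripts in beta cells grouped by the share of insulin transcripts in the cell, in CPM (left) and in hormone-free CPM (right), on log axes. Solid lines are the flox/flox library and dashed lines the library labelled BcBKO. In hormone-free CPM Gpx3 drops from 232 and 241 in the lowest bin to 23.7 and 45.2 in the bin of 60% to 70%. The other lines vary less than that of Gpx3.

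The hormone-free levels of the other enzymes varied less than that of Gpx3 over the insulin share of the beta cell. Over the 4 bins, Gpx1 ran between 221 and 235 in the flox/flox library and Prdx2 between 375 and 434. In the library labelled BcBKO these ranges were 232 to 254 and 408 to 418. In the flox/flox library Sod1 fell from 168 in the lowest bin to 134 in the highest, and Txnrd1 from 106 to 81.8. Prdx1 ran between 487 and 602 there. Sod2 was lowest there, at 165, in the bin with the least insulin and at 222 in the bin of 60% to 70%. Prdx4 resembled Gpx3 in part, with 110 in the lowest bin and 48.2 to 68.6 in the others. Txn1 was also highest in the lowest bin, at 304 in the flox/flox library against 194 to 221 in the other bins; in the library labelled BcBKO it was at 263 against 221 to 260. The lowest bin held few cells, and what set it apart was not tested.

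Prdx4, the peroxiredoxin of the endoplasmic reticulum that takes part in oxidative folding of proteins, was lower in beta cells than in each other class on the TMM scale and with library totals. The gene lies on the X chromosome (chrX:155323918-155340754, minus strand). Beta cells had 14.8 and 16.04 CPM, alpha cells 67.4 and 60.1, delta cells 88.9 and 83.3, endothelial cells 98.2 and 105, mural cells 96.4 and 102, and macrophages 53.9 and 48.4. The 2 values of beta cells lay below those of each other class with no overlap. In hormone-free CPM the gap narrowed to 53.4 and 55.0 in beta cells against 60.4 and 56.9 in macrophages, the nearest class, and 140 and 132 in delta cells, the highest. Scaled by TMM, Prdx4 was lower in beta cells against all 5 classes by edgeR: −1.17 against alpha (adjusted p = 1.77e-08), −1.28 against delta (2.88e-27), −1.22 against endothelial (5.01e-06), −1.12 against mural cells (8.60e-06) and −0.82 against macrophages (0.000605). All fitted alternatives kept these 5 signs, but over hormone-free totals the difference from macrophages no longer passed (−0.12, 0.416). Without barcodes of several classes, macrophages were below beta cells in hormone-free CPM, at 50.6 and 49.7 against 53.4 and 55.0. Per cell, too, macrophages held the fewest UMIs of Prdx4, 0.356 and 0.305, followed by beta cells with 0.648 and 0.611, and delta cells held the most with 1.10 and 0.965.

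The cytosolic peroxiredoxins did not follow Prdx4 on the TMM scale. Prdx1 (chr4:116685544-116700822, plus strand) was at 143 and 166 CPM in beta cells, 213 and 221 in alpha cells, 335 and 316 in delta cells, 670 and 683 in endothelial cells, 678 and 702 in mural cells, and 677 and 566 in macrophages. The islet endocrine classes thus formed a lower group and the other 3 classes an upper one. On the TMM scale it was higher in beta than in alpha cells (0.37, edgeR adjusted p = 0.00136), did not pass against delta cells (0.11, 0.181; 0.20, 0.0151 without the filter on low levels), and was lower than in endothelial (−0.64, 0.000249) and mural cells (−0.60, 0.000124) and in macrophages (−1.10, 5.43e-05). The signs against alpha and delta cells turned with library totals (−0.50 and −1.08).

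Prdx2 (chr8:84969587-84974834, plus strand), known for its abundance in red blood cells and neurons, was at 115 and 121 CPM in beta cells, 231 and 252 in alpha cells, 264 and 251 in delta cells, 256 and 260 in endothelial cells, 255 and 271 in mural cells, and 160 and 135 in macrophages. Alpha, delta, endothelial and mural cells lay within 231 to 271 CPM. In hormone-free CPM the 3 endocrine classes were level, at 413 and 417 in beta, 408 and 426 in alpha and 415 and 399 in delta cells, and above the 3 other classes. With TMM scaling Prdx2 did not pass against alpha (−0.17, edgeR adjusted p = 0.0671) or delta cells (0.07, 0.426) and was higher in beta cells than in endothelial (0.37, 0.00245) and mural cells (0.41, 0.000964) and macrophages (0.59, 0.00154). Against alpha cells it passed as lower in beta cells without barcodes of several classes (−0.23, 0.0187), without called doublets (−0.18, 0.0459) and with beta cells from 1000 UMIs (−0.19, 0.0423). With library totals the 3 higher signs turned, and without barcodes of several classes the mural difference did not pass (0.27, 0.0877). The gene overlaps Rnaseh2a and Junb on the other strand in the annotation.

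The thioredoxin pair split between its protein and its reductase. Txn1 (chr4:57943373-57956411, minus strand), the small dithiol protein that feeds electrons to peroxiredoxins, was at 55.8 and 65.6 CPM in beta cells, 87.4 and 104 in alpha cells, 115 and 127 in delta cells, 534 and 548 in endothelial cells, 472 and 515 in mural cells, and 206 and 176 in macrophages. Endothelial cells exceeded beta cells even in hormone-free CPM, with 574 and 600 against 201 and 225. Scaled by TMM, Txn1 was lower in beta than in endothelial (−1.67, edgeR adjusted p = 3.52e-06) and mural cells (−1.46, 1.81e-06) and in macrophages (−0.75, 0.000741), and higher than in alpha (0.21, 0.0143) and delta cells (0.20, 0.0161), where the sign turned with library totals (−0.66 and −0.99). Both of these calls ended with DESeq2 (0.20, adjusted p = 0.152, and 0.19, 0.256) and without the replicate block (0.20, 0.0881, and 0.20, 0.104). Over hormone-free totals the calls against delta cells (0.16, 0.0529) and macrophages (−0.04, 0.758) ended.

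Txnrd1 (chr10:82833951-82897712, plus strand), the selenium-containing reductase of the cytosol, went the other way against the classes outside the endocrine lineage. It was at 27.2 and 31.7 CPM in beta cells, 54.5 and 57.5 in alpha cells, 78.0 and 86.1 in delta cells, 56.3 and 54.3 in endothelial cells, 60.6 and 55.7 in mural cells, and 42.8 and 34.6 in macrophages. In hormone-free CPM delta cells led with 122 and 137, beta cells followed with 97.9 and 109, and macrophages were lowest with 48.0 and 40.7. On the TMM scale Txnrd1 was higher in beta cells than in endothelial (0.58, edgeR adjusted p = 0.000544) and mural cells (0.57, 0.000949) and macrophages (0.50, 0.0129), lower than in delta cells (−0.29, 0.000964), and did not pass against alpha cells (−0.06, 0.471). With library totals the differences from endothelial and mural cells and macrophages were −0.92, −0.99 and −0.40. The call against delta cells ended with DESeq2 (−0.30, adjusted p = 0.109) and without the filter on low levels (−0.20, 0.0510), and that against macrophages with DESeq2 (0.48, 0.0898).

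The share of cells in which a transcript was seen gave the same dependence on the scale. With each cell thinned to 2000 UMIs, 7 of the 10 enzymes had their lowest share in beta cells in both libraries, where 42.8% of all genes had, and with cells thinned to 500 hormone-free UMIs 0 of the 10 did, where 3.24% of all genes did. Unthinned, 0 of the 10 did, with 1.79% of all genes. Cells with fewer than 2000 UMIs were left out, which took 0 beta cells in either library, 28 and 52 endothelial cells and at most 13 cells of any other class in a library. For Prdx4 the shares at 2000 UMIs were 2.55% and 3.30% in beta cells and 18.5% and 15.2% in delta cells, and for Sod1 they were 7.75% and 10.1% in beta cells and 32.7% and 37.5% in endothelial cells. Gpx3 was seen in 2.29% and 2.94% of thinned beta cells, not above the 5.13% and 6.01% of endothelial cells, and in 80.0% and 83.9% of alpha cells. Without thinning, at a median of 38461.5 and 33171.5 UMIs per cell, 19.5% and 30.1% of beta cells had a Gpx3 UMI.

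The other genes of the pathway were taken from 7 lists with 49 genes in all. Over 7992 genes, the median log2 difference of beta cells from the mean of the 5 other classes was −1.20 in CPM and 0.16 in hormone-free CPM, with 42.3% of genes below 0 in the latter. The 10 enzymes had a median of −1.56 in CPM and −0.14 in hormone-free CPM, with 6 of 10 below 0. Among the other glutathione peroxidases and peroxiredoxins 4 of 6 genes reached the level needed for naming, and 1 of these 4 was below 0 in hormone-free CPM. This was Gpx8, a peroxidase of the endoplasmic reticulum, which beta cells had at 0.333 and 0.421 CPM and endothelial cells at 86.8 and 81.9. Prdx6, which also acts as a phospholipase, was the highest of these 4 genes in beta cells relative to the other classes. It was at 127 and 122 CPM in beta cells and at 95.7 to 187 CPM over the other classes. Gpx2 and Gpx7 did not reach the level needed for naming, and their log2 differences in CPM were 1.08 and −1.88. Gpx2 was at 10.1 and 15.5 CPM in beta cells and at 1.24 and 2.21 in endothelial cells. By edgeR on the TMM scale, 3 of 4 genes of this list tested against alpha cells were higher in beta cells and 0 lower, and against endothelial cells 4 of 6 were higher and 2 lower. Of all genes tested, 32.6% were higher and 32.1% lower against alpha cells, and 41.6% were higher and 40.8% lower against endothelial cells.

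Catalase, which breaks down hydrogen peroxide in peroxisomes, was nearly missing from the endocrine cells. Cat was at 1.13 and 1.42 CPM in beta cells, 0.786 and 3.55 in alpha cells and 3.45 and 5.35 in delta cells, and at 40.1 and 38.1 in endothelial cells and 52.9 and 33.7 in macrophages. The difference of beta cells was −3.45 from endothelial cells and −4.17 from macrophages on the TMM scale, and Cat was too low to be tested against alpha and delta cells. Nfe2l2, which encodes NRF2, followed a similar order, with 12.6 and 14.1 CPM in beta cells, 22.5 and 27.4 in alpha cells, 248 and 238 in endothelial cells and 338 and 360 in macrophages. Of the 9 genes of the NRF2 list, 8 were tested against macrophages, 6 were lower in beta cells and 0 higher, and against alpha cells 0 were lower and 6 higher. Of all genes tested, 34.4% were lower and 35.1% higher against macrophages, and 32.1% were lower and 32.6% higher against alpha cells. Among the genes of that list that reached the level needed for naming, Ftl1, the ferritin light chain, was highest in beta cells relative to the other classes. Nqo1, below that level, had a higher log2 difference in CPM (−0.54 against −0.69).

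The glutathione list spanned both directions. Here too, highest and lowest refer to the log2 difference in CPM of beta cells from the mean of the other classes. They were chosen among genes with at least 20 CPM in both libraries in 1 class. Glrx, a glutaredoxin that removes glutathione from proteins, was at 21.6 and 22.2 CPM in beta cells and at 5.76 to 12.4 CPM in alpha, delta, endothelial and mural cells, with 34.9 and 35.9 in macrophages. Mgst1, a microsomal glutathione transferase, was the lowest of the glutathione list, with 0.999 and 2.89 CPM in beta cells and 74.9 and 70.3 in endothelial cells. Idh2, the mitochondrial isocitrate dehydrogenase that makes NADPH, was highest of the NADPH list (46.1 and 42.4 CPM in beta cells, 37.4 to 73.2 elsewhere), and Pgd, of the pentose phosphate pathway, was lowest (7.68 and 9.59 CPM in beta cells, 75.8 and 80.8 in macrophages). In the thioredoxin list Txnl1 was highest, and Txnip, the inhibitor of thioredoxin, was lowest at 155 and 175 CPM in beta cells against 892 and 827 in endothelial cells. Of the 3 genes of its list that reached this level, Ccs, the copper chaperone of Sod1, was highest, at −1.05. Even so, beta cells had 14.8 and 14.1 CPM of Ccs, below the 18.9 to 48.8 CPM of the other classes. In the selenoprotein list only 2 genes reached this level. Sephs2, which makes selenophosphate, was the higher (−0.04), and Secisbp2, a factor of selenoprotein synthesis, was the lower (−1.25). Of genes below the level of 20 CPM, Srxn1 of the thioredoxin list (−0.35) lay above Txnl1 (−0.46). Likewise Sepsecs of the selenoprotein list (0.74) lay above Sephs2 (−0.04).

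Counted by edgeR on the TMM scale, these lists held calls on both sides. Of the glutathione list 2 of 10 genes tested were lower in beta than in alpha cells and 4 higher, and 5 of 11 were lower than in endothelial cells and 6 higher. Of the NADPH list 1 of 7 was lower and 5 higher against alpha cells, and 2 of 8 were lower and 2 higher against endothelial cells. Of the thioredoxin list 1 of 5 was lower and 2 higher against alpha cells, and 2 of 6 were lower and 3 higher against endothelial cells. Of the 4 genes of selenoprotein synthesis 0 were lower and 2 higher against alpha cells, and 1 was lower and 2 higher against endothelial cells. Among Cat, Sod3 and Ccs only Ccs could be tested against alpha cells and was higher in beta cells (0.47), and 2 of the 3, Cat and Sod3, were lower in beta than in endothelial cells. Of all genes tested in these comparisons, 32.1% were lower and 32.6% higher against alpha cells, and 40.8% were lower and 41.6% higher against endothelial cells.

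Over the 12 values of 6 classes and 2 libraries, genes with a pattern most like each enzyme were listed as a description; the values share libraries, depth and the dilution by hormone transcripts. Out of 4366 genes compared on log2(CPM + 1), Gpx3 was closest to Lgals3bp (r = 0.993), Hist3h2ba (0.991) and Ndst4 (0.988). The closest gene was Efnb1 for Sod1 (0.996), Sf3b6 for Sod2 (0.963), Ssh2 for Gpx1 (0.991), Ywhab for Gpx4 (0.997), Pole4 for Prdx1 (0.995), Srsf1 for Prdx2 (0.995), Mdm4 for Prdx4 (0.997), Crim1 for Txn1 (0.997) and Kdm1a for Txnrd1 (0.976). The correlation of Gpx3 with the other 9 enzymes ran from −0.25 for Txn1 to 0.60 for Txnrd1.

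Between the genotypes there is 1 library each, so no test was possible, and a size of 0.25 on the log2 scale of CPM + 1 was used. In beta cells 2 of the 10 enzymes, Sod1 and Gpx3, were past 0.25 toward the library labelled BcBKO, where 5.82% of 2938 genes were, and 0 were past −0.25, where 1.8% were. Of the 10, 9 reached the minimum of 20 CPM in either library; Gpx3 reached it only in the library where it was higher, and Prdx4 stayed below it. Sod1 went from 40.0 to 51.3 CPM (0.35, 95% counting interval 0.29 to 0.40), higher than 97.5% of genes. The values of Prdx1 (0.21), Txnrd1 (0.21), Txn1 (0.23), Gpx1 (0.16), Prdx4 (0.11), Prdx2 (0.08) and Gpx4 (0.01) were above 0 and that of Sod2 (−0.11) below; of all genes 71.1% were above 0. The median of the 10 was 0.19 against 0.06 for all genes, and with TMM scaling it was 0.11 against −0.02, with Gpx4 turning to −0.07. In UMIs per cell, which were fewer in the library labelled BcBKO, 11.6% of all genes were above 0 and their median was −0.14. On that scale 5 of the 10 were above 0, Gpx3 (0.87), Sod1 (0.16), Txn1 (0.03), Txnrd1 (0.02) and Prdx1 (0.02), and 5 below, Sod2 (−0.31), Gpx4 (−0.19), Prdx2 (−0.12), Prdx4 (−0.09) and Gpx1 (−0.03).

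**Figure D4:**
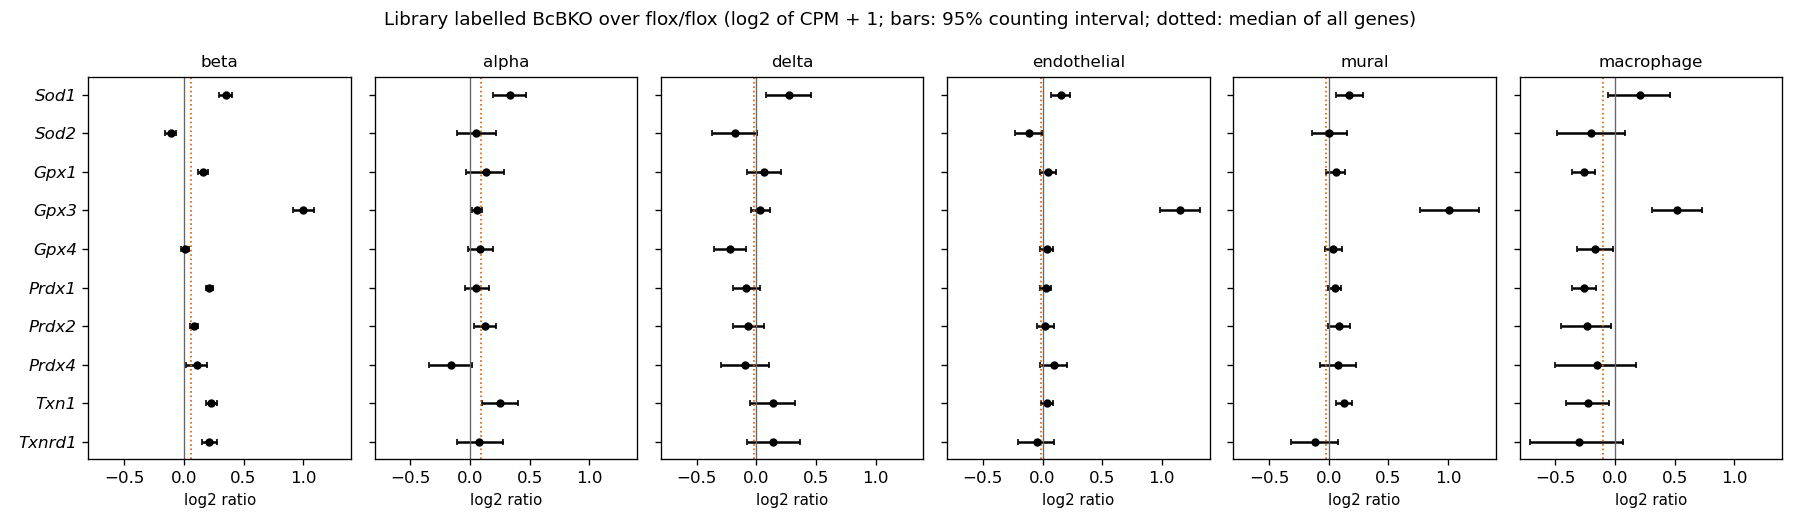
log2 ratio of the library labelled BcBKO over the flox/flox library for the 10 transcripts in each cell class, on CPM + 1. Bars are 95% counting intervals, which do not cover differences between mice or preparations, and the dotted line is the median of all genes; Sod1 lies right of 0 in all 6 classes, and Gpx3 lies past 0.25 in beta, endothelial and mural cells and macrophages.

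Sod1 was higher in the library labelled BcBKO in all 6 classes, with 0.33 in alpha, 0.27 in delta, 0.15 in endothelial, 0.17 in mural cells and 0.21 in macrophages, so values above 0 were not limited to beta cells. Its counting interval reached below 0 in macrophages (−0.06 to 0.46). In alpha cells Sod1 and Txn1 (0.25) were past 0.25, where 16.1% of genes were, with 2.41% past −0.25. In delta cells Sod1 alone was, where 10.3% of genes were, and 0 were past −0.25, where 12.2% were. In endothelial and mural cells Gpx3 alone was past 0.25, where 3.95% and 5.48% of genes were, and 0 were past −0.25, where 7.59% and 10.4% were. In macrophages 1, Gpx3, was past 0.25, where 9.36% of genes were, 2 of the 10 were above 0, where 35.7% of genes were, and 3 were past −0.25, Gpx1 (−0.26), Prdx1 (−0.26) and Txnrd1 (−0.30), where 28.9% of genes were. The medians of the 10 were 0.08 in alpha, −0.02 in delta, 0.04 in endothelial, 0.07 in mural cells and −0.21 in macrophages, against 0.09, −0.02, −0.01, −0.02 and −0.10 for all genes.

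Gpx3 was higher in the library labelled BcBKO by 1.00 in beta cells (interval 0.91 to 1.09), 1.15 in endothelial, 1.01 in mural cells and 0.52 in macrophages, but by 0.06 in alpha and 0.03 in delta cells, where it was abundant. Gcg moved with it in those classes, from 314 to 599 CPM in beta, from 2852 to 8159 in endothelial, from 975 to 5254 in mural cells and from 18514 to 30060 in macrophages. Gcg at the ratio of alpha cells would carry 1.16 and 2.54 CPM of Gpx3 into beta cells, of the 9.60 and 20.2 measured. Within beta cells that had at least 0.1% of other islet hormones the Gpx3 levels were 34.6 and 31.8 CPM, and within those that had less they were 8.05 and 14.98; the first kind made up 199 of 2750 beta cells in the flox/flox library, against 1138 of 3058 in the one labelled BcBKO. Without barcodes of several classes Gpx3 went from 20.4 to 35.3 CPM in endothelial cells, from 48.2 to 83.9 in mural cells and from 18.6 to 29.7 in macrophages, and Gcg from 1268 to 2245, from 1210 to 2136 and from 1178 to 1661. The part of the other endocrine cells' RNA in the difference was not tested beyond these values. Acinar markers moved the opposite way, with 5 genes summing to 118 and 18.9 CPM in beta cells and 914 and 101.3 in endothelial cells.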

How the data were processed

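Single-cell RNA was counted from islets in 2 droplet libraries. The authors deposited, per the file headers, a matrix of raw UMI counts per gene and barcode for each, which was used without change; the submitters' processing notes name Cell Ranger 3.1.0, Seurat 4.0.0 and mm10, while the matrix header names cellranger 6.1.2, and the annotation is not given in the sources used here. Since CPM divides by all UMIs and hormone transcripts fill most of those of beta cells, levels were also computed without hormone and mitochondrial genes and per cell.

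Barcodes with at least 500 genes, at least 1000 UMIs and at most 20% mitochondrial UMIs were kept. Beta cells had at least 25% Ins1 and Ins2, at least 10000 UMIs and under 1% each of Gcg, Sst and Ppy. Below 15% insulin, alpha cells had at least 10% Gcg, delta cells at least 5% Sst, endothelial cells at least 3 UMIs of Plvap and Cdh5, mural cells at least 5 of Rgs5 and Pdgfrb, and macrophages at least 5 of C1qa and C1qb. Called doublets (Scrublet in scanpy 1.11.5, assumed rate 8%; 2.25% and 2.08% of barcodes) were kept, and an alternative left them out. UMIs were summed per class and library. Classes were compared with edgeR 4.0.16 (R 4.3.3) on genes with at least 5 CPM in both libraries of either class, with Benjamini-Hochberg adjustment over all of them; DESeq2 1.42.0 was an alternative. The procedure was tested on simulated data. Class order used genes with at least 20 CPM in both libraries in 1 class. The genotype comparison took genes that reached 20 CPM in at least 1 library; Poisson intervals are exact, and those of log2 ratios come from 2000 Poisson draws. Intervals cover counting error only.

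The members, lists and classes were chosen with earlier results of these data known. Named genes are the 10 enzymes, the highest and lowest of each list against the mean of the other classes among genes of at least 20 CPM, and the 3 genes most correlated with each enzyme among genes of at least 50 CPM, of which not all are given. Positions come from GENCODE M21 (GRCm38, the build named mm10), which holds 28416 of the 28692 identifiers. Scripts used pandas 2.3.3, scipy 1.17.1, numpy 2.4.6 and matplotlib 3.10.9 in Python 3.11.15.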

Additional observations from a re-analysis of the deposited data

How the results depend on the processing

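Of the calls of beta cells against the other classes, scaling moved the most. With library totals and no TMM the counts lower in beta cells were 10 against alpha, 10 against delta, 10 against endothelial, 10 against mural cells and 8 against macrophages, and 0 were higher in each, with 86.0%, 92.3%, 82.8%, 84.0% and 64.0% of all genes lower. Over totals without hormone and mitochondrial genes 3 were lower and 5 higher against macrophages (22.4% and 60.7% of all genes). DESeq2 gave 3 lower and 1 higher against delta cells (16.5% and 17.2%) and 1 higher against macrophages (26.5%), leaving out the filter on low levels gave 3 lower against delta cells (14.4%), and leaving out the replicate block (the pairing of the classes within a library) gave 1 higher against delta cells (26.4%). The other 9 counts kept within 1.5 times without the block. No paired analysis was possible because each genotype has 1 library, for the comparison of genotypes.

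With library totals the log2 difference reversed to −0.32 (Sod2), −0.50 (Gpx1), −0.46 (Gpx4), −0.50 (Prdx1) and −0.66 (Txn1) against alpha cells, −0.98 (Sod2), −0.77 (Gpx4), −1.08 (Prdx1), −1.13 (Prdx2) and −0.99 (Txn1) against delta, −0.71 (Sod2), −1.13 (Prdx2) and −0.92 (Txnrd1) against endothelial, −0.87 (Sod2), −1.54 (Gpx3), −1.16 (Prdx2) and −0.99 (Txnrd1) against mural cells, and −0.45 (Sod2), −0.32 (Prdx2) and −0.40 (Txnrd1) against macrophages. Totals without hormone and mitochondrial genes gave 0.10 for Txnrd1 against alpha, 0.017 for Gpx3 against endothelial cells, and 0.69 for Sod1 and 0.62 for Gpx4 against macrophages. Without barcodes of several classes Gpx3 was at 0.50 against endothelial, −0.65 against mural cells and 0.046 against macrophages, and Sod1 at 0.75 against mural cells and 0.13 against macrophages. Without called doublets Gpx3 was at 0.46 against endothelial cells and Sod1 at 0.030 against macrophages. Without the filter Txnrd1 was at 0.016 against alpha cells and Sod1 at 0.066 against macrophages. Against mural cells Gpx3 was at −0.0028 with DESeq2 and −0.053 with beta cells from 20000 UMIs. Leaving out a library leaves a difference with no test: Txnrd1 against alpha cells was at 0.028 without the flox/flox library and −0.16 without the library labelled BcBKO, and no other direction changed.

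Between genotypes the median of the 10 in beta cells was 0.11 with TMM and 0.12 over totals without hormone and mitochondrial genes; in alpha cells it was −0.028 and 0.017, and in mural cells without barcodes of several classes 0.015. Gpx4 in beta cells was at −0.071 with TMM, −0.060 without hormone and mitochondrial genes and −0.0040 with beta cells from 20000 UMIs. The number of enzymes with the lowest share of cells in beta cells was 0 without thinning (1.79% of all genes). It was 0 with 500 hormone-free UMIs (3.24% of all genes). The number lowest in hormone-free CPM was 0 without barcodes of several classes, where no share of all genes was computed. The thinning to 500 and the alternatives for class order were chosen after seeing the data. The cause of these changes was not tested. Macrophages and delta cells had the fewest UMIs in both libraries, which limits their precision. Next came alpha cells in the flox/flox library and mural cells in the one labelled BcBKO, with the same limit.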
